A study of Mus musculus with 6 samples.

Results

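The mitochondrial ribosomal protein genes, which encode the protein components of the mitochondrial ribosome, were followed in immortalized mouse proximal tubular cells. Members were chosen by their annotated symbol: every gene whose symbol starts with Mrpl (large subunit) or Mrps (small subunit) followed by a number. The symbols took 132 probes of 76 genes, 48 Mrpl and 28 Mrps, out of 45281 probes and 19057 genes on the array. Where a gene had several probes, the one that stands for it was selected on its measured mean intensity over the 6 arrays. The set of genes was also picked with its fold changes already known, so its counts and medians are given as a description and carry no test of their own. The Glis2KD group was 3 arrays of cells with a lentiviral short hairpin RNA (shRNA) against Glis2, and the Control group was 3 arrays of cells with an anti-GFP shRNA. All the cells were of the strain background spelled C56BL/6 in the labels, carried a lentiviral hairpin, and were collected 7 days after infection. Glis2 encodes a zinc finger transcription factor whose loss leads to cystic and fibrotic kidney disease, and the comparison asks which transcripts differ once it is lowered. Both groups come from an immortalized line, the hairpin is a stable knockdown and not a deletion, and the sources used here do not say whether more than 1 hairpin sequence or infection was used.

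Mitochondria keep their own ribosome, which translates the few messages of mitochondrial DNA, and the products are core subunits of the respiratory chain and of ATP synthase. Its ribosomal RNAs are transcribed inside the organelle, while all of its proteins are encoded in the nucleus, made on cytosolic ribosomes and imported. Some of these proteins are counterparts of bacterial ribosomal proteins and others exist only in mitochondrial ribosomes. In the intact kidney the proximal tubule is rich in mitochondria, since its transport of solutes depends on oxidative phosphorylation.

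Glis2 was lower in the Glis2KD arrays on both of its probes. The brighter probe had intensities of 169, 161 and 176 in Glis2KD cells, against 278, 234 and 229.7 in Control cells, and the other had 145, 177 and 161 in Glis2KD cells, against 216, 212 and 191 in Control cells. These means are 31.8% and 22% lower, whereas the submitters state a knockdown above 80%. The signals lay close to the background limit of 137, which is the most frequent intensity plus 3 SD and was not subtracted, so the percentages are bounded by background. That limit was exceeded by 40.7% to 40.8% of the probes of an array, and 9642 genes had a mean above it. Of 14 proximal tubule markers measured, 5 were above background: Aqp1, Cdh16, Pax8, Krt8 and Krt18. The defining markers Lrp2, Cubn, Slc34a1, Slc5a2, Slc5a12, Hnf4a and Miox were not above background in either group. The 14 markers summed to between 76714 and 78656 in Glis2KD arrays and between 62984 and 67745 in Control arrays. That sum rests almost wholly on the 5 markers above background, of which 2 rose and 2 fell. It is not a measure of proximal tubule identity. Krt8 and Krt18 rose while Aqp1 fell by 4.77 on the log2 scale. Cdh16 was also called lower, with 148, 131 and 132 in Glis2KD cells, against 412, 368 and 317 in Control cells, and 2 of its 3 Glis2KD arrays were under the background limit. Of 21 markers of collecting duct, distal nephron, podocytes, endothelium, fibroblasts and immune cells, 5 were above background, 2 rose (Hsd11b2 and Podxl) and 1 fell (Dcn). Hsd11b2 was under the limit in all 3 Control arrays and Dcn in 2 of 3 Glis2KD arrays, so the sizes of those differences are not given. They summed to between 4117 and 4263 in Glis2KD arrays and between 4083 and 4351 in Control arrays, and none of the 4 endothelial and 4 immune markers was above background. Whether these marker shifts have a part in the results below was not tested, and in such bulk RNA fewer cells of a type and less RNA per cell cannot be told apart.

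Transcripts of the mitochondrial ribosomal proteins were mostly higher in Glis2KD cells. Of the 76 genes, 31 rose, 3 fell and 42 were not called, where a call is an adjusted p under 0.05 in limma over all 19057 genes. The 31 are 40.8% of the members, set beside 11.2% of all genes and 21.3% of genes above background that were called higher. The 3 are 3.95% of the members, set beside 11.4% of all genes and 21.9% of genes above background that were called lower. The median log2 fold change of the members was 0.19, with the middle 50% of them between 0.01 and 0.39, against a median of -0.01 over genes above background. Fold changes here and below are log2 values of Glis2KD over Control, with 3 arrays a group, unless given as a percentage. They were modest: the genes that rose did so by 19.2% to 94.3%, and 14 of them exceeded 0.5 on the log2 scale. Of the 76 genes, 73 were above background; Mrpl19, Mrpl32 and Mrps14 were not. The members ran in mean intensity between 112 and 20360. Among the 38 members with a mean between 1284 and 4216, 15 rose and 3 fell with a median of 0.19, while of 2093 other genes in that range 25.3% were called higher and 27.2% lower, with a median of -0.01.

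In 40 of the 76 genes all 3 Glis2KD arrays lay above all 3 Control arrays, and in 5 all lay below. Among genes above background, 25.8% were separated upwards in this way and 26.5% downwards. The members without a call were also mostly on the higher side, 28 above 0 and 14 below. In 12 of them the groups did not overlap, and no such share over uncalled genes is given here. Of the 40 and the 5 members separated upwards and downwards, 30 and 3 were called. Over all members, 77.6% had a positive fold change, against 49.3% of genes above background. The array values within a group varied with a median SD of 0.108 on the log2 scale, and Mrpl55, at 0.334, varied most. Each gene's fold change had an SE between 0.0841 and 0.142, and the smallest fold changes that were called were 0.25 upwards and -0.24 downwards. Of the 31 genes that rose, 23 were called in each of the 6 fits that left out 1 array. The other 8 (Mrpl30, Mrpl47, Mrpl53, Mrps18c, Mrps25, Mrps26, Mrps30 and Mrps34) lost the call in at least 1 of them, and 5 of these (Mrpl47, Mrpl53, Mrps18c, Mrps26 and Mrps30) also lost it under both background corrections. The 6 fits that left out 1 array called 1864 to 1963 of all genes higher, against 2127 with all 6 arrays. The intervals of genes without a call, drawn in the plot of all 76 fold changes, still reach into values as large as those of some genes that were called.

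**Figure D1:**
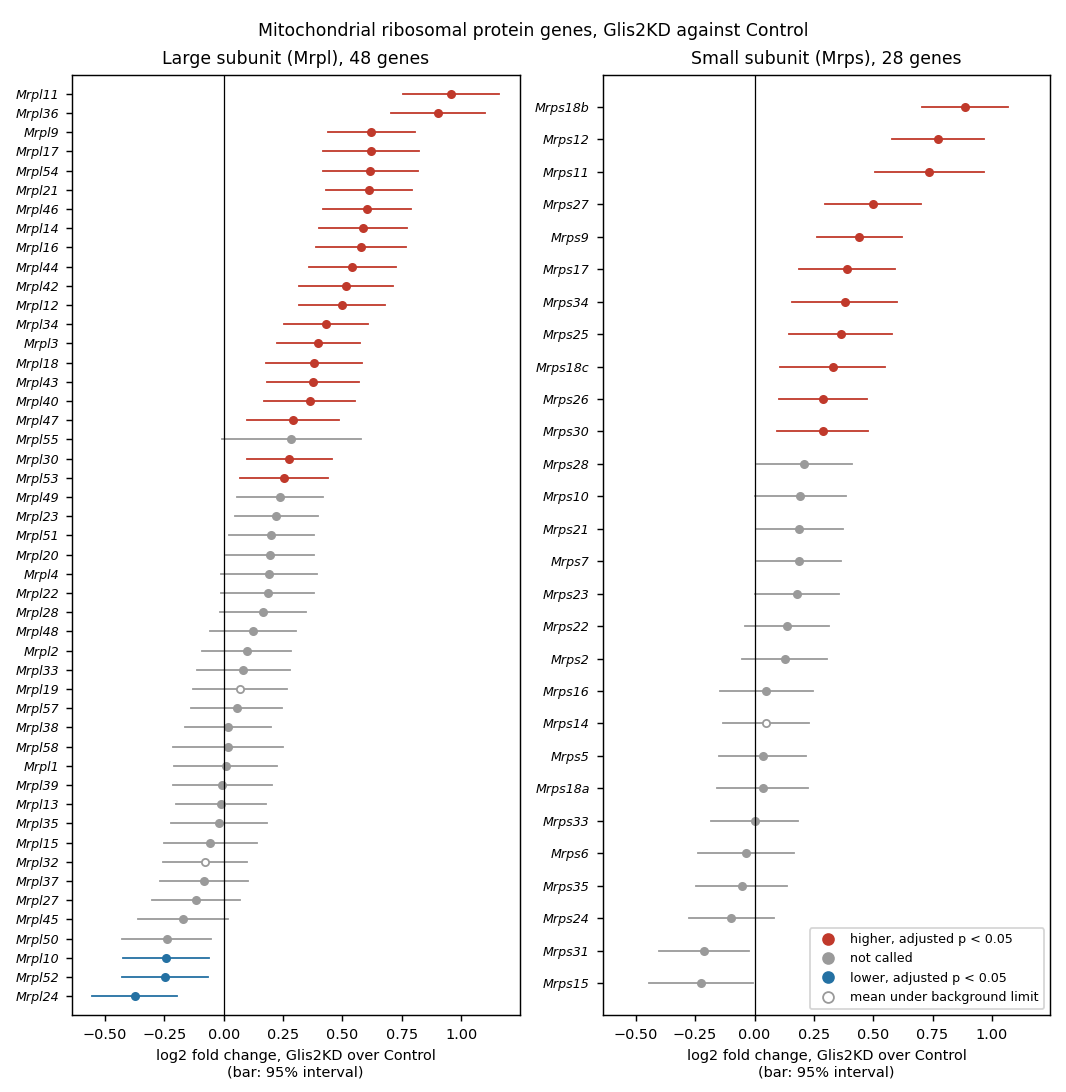
log2 fold change (Glis2KD over Control) of each of the 76 mitochondrial ribosomal protein genes, with its 95% interval, in the large subunit (left, 48 genes) and the small subunit (right, 28 genes). Red points are genes called higher (31), blue points genes called lower (3, all in the large subunit), and open points the 3 genes under the background limit; most points lie right of 0.

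Promoter windows of 6 genes are shown: the 2 that rose most in each subunit, Mrpl24, which fell most, and Mrpl9. Mrpl9 is shown for its window, which holds the NRF1 motif on both strands next to the gene start. It rose by 0.62, less than Mrps11 at 0.74, whose window is not shown. Each window runs 250 bases before to 50 bases after the annotated gene start, in RefSeq's mouse assembly GRCm38.p6, 5′ to 3′ on the gene's strand, with motif matches in capitals.
Mrpl11, chr19:4962056-4962355, plus strand: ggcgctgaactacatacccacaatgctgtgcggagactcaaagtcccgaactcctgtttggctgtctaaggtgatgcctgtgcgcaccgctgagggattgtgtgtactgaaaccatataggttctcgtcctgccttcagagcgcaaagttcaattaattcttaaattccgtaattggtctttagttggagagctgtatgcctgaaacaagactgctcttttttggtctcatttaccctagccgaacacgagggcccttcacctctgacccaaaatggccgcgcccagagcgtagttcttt
Mrpl36, chr13:73330759-73331058, plus strand: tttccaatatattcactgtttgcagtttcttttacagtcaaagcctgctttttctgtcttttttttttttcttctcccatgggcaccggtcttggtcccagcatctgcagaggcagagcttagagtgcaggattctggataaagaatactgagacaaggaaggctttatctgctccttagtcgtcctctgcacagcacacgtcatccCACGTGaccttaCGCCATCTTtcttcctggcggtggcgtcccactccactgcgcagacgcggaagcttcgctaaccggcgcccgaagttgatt
Mrpl9, chr3:94443086-94443385, plus strand: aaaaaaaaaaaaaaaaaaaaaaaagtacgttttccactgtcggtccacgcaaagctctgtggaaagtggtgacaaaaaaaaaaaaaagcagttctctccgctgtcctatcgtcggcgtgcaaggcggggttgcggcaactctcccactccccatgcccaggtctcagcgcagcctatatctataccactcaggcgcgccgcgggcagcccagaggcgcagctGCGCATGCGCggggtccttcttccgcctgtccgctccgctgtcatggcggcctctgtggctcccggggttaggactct
Mrpl24, chr3:87919294-87919593, plus strand: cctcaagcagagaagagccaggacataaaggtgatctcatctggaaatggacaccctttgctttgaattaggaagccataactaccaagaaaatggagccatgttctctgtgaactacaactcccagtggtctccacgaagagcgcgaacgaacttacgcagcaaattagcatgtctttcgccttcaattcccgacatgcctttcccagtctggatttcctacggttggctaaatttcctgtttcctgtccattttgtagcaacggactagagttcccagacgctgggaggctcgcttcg
Mrps18b, chr17:35916391-35916690, minus strand: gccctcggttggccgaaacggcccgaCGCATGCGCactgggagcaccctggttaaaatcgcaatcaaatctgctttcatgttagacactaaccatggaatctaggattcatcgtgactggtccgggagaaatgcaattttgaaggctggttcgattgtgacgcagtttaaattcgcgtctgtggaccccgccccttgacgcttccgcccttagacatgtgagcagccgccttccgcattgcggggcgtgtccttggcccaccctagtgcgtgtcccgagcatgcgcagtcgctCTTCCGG
Mrps12, chr7:28741772-28742071, minus strand: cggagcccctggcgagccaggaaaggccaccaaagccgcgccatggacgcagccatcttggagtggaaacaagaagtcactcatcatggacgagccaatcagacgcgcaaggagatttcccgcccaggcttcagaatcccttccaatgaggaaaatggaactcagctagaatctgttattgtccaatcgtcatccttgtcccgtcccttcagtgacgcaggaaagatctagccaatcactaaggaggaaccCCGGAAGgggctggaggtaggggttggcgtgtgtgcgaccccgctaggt
The capitals mark, on either strand, CACGTG at -43 bases from the gene start and AAGATGGCG at -31 in Mrpl36, 2 overlapping matches of GCGCNTGCG at -28 and -27 in Mrpl9, GCGCNTGCG at -224 and CCGGAAG at 43 in Mrps18b, and CCGGAAG at 1 in Mrps12. The windows of Mrpl11, whose fold change was the highest, and of Mrpl24, whose fold change was the lowest, held none of the 4 motifs searched.

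Over the set, a RefSeq window was found for 67 of the 76 members. The motifs searched, on both strands, were GCGCNTGCG (NRF1, nuclear respiratory factor 1), CCGGAAG (ETS factors, among them GABP), AAGATGGCG (YY1) and CACGTG (E-box, the motif of MYC and related factors); the last letters of the ETS motif can overlap the first of the YY1 motif. Some genes have several windows, and a gene was counted when any of its windows held the motif. The NRF1 motif stood in 18 of 67 members (26.9%) and in 7.12% of all 27025 genes with a window. It stood in 15.9% of the 7805 other genes above background with a window. The ETS motif stood in 26 members (38.8%), in 9.93% of all genes with a window and in 20.9% of those above background. The YY1 motif stood in 8 (11.9%), against 1.64% of all genes with a window and 3.69% of those above background. The E-box stood in 5 (7.46%), against 8.09% of all genes with a window and 12.1% of those above background. Among members that rose the ETS motif stood in 12 of 29 (41.4%), and among the other members in 14 of 38 (36.8%). For the NRF1 motif the counts were 10 of 29 (34.5%) among members that rose and 8 of 38 (21.1%) among the others; neither difference was tested. The median log2 fold change was 0.28 in the 18 members with an NRF1 match and 0.19 in the others, and 0.19 with an ETS match against 0.20 without. These matches are letters in a window, not measured binding sites.

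In the large subunit, 20 of 48 genes rose and 3 fell, with a median log2 fold change of 0.20. The highest was Mrpl11, counterpart of the bacterial protein at the base of the stalk that receives translation factors. Its intensities were 2026, 2402 and 2281 in Glis2KD cells, against 1006, 1206 and 1247 in Control cells, a fold change of 0.96 ± 0.0977 (SE; adjusted p = 4.75e-08). The lowest Glis2KD array of this gene lay far above the highest Control array. Mrpl36, a very small zinc-binding protein in bacteria, had 3899, 4029 and 4399 in Glis2KD cells, against 1932, 2422 and 2262 in Control cells, a fold change of 0.90 ± 0.0953 (SE; adjusted p = 8.48e-08). For both genes the distance between groups was several times the spread within either.

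A further 4 large subunit genes rose by nearly the same amount. Mrpl9, counterpart of bacterial L9, had 2459, 2515 and 2404 in Glis2KD cells, against 1605, 1474 and 1723 in Control cells, with a fold change of 0.62 ± 0.0881 (SE; adjusted p = 6.57e-06). Mrpl17, counterpart of bacterial L17, measured 7496, 6682 and 7112 in Glis2KD cells, against 4649, 4014 and 5262 in Control cells, at 0.62 ± 0.0981 (SE; adjusted p = 2.82e-05). Mrpl54, which has no bacterial counterpart, gave 5198, 4812 and 5615 in Glis2KD cells, against 3664, 2973 and 3571 in Control cells, at 0.62 ± 0.0963 (SE; adjusted p = 2.37e-05). None of these groups overlapped, though the Control arrays of Mrpl17 and Mrpl54 were more scattered than those of Mrpl9. Mrpl21, counterpart of bacterial L21, showed 6656, 6415 and 6173 in Glis2KD cells, against 4033, 4501 and 4066 in Control cells, at 0.61 ± 0.0871 (SE; adjusted p = 6.96e-06); its other probe was not above background.

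The other 14 large subunit genes that rose had log2 fold changes between 0.25 (Mrpl53) and 0.60 (Mrpl46), and in each of them the groups did not overlap. They include proteins of the core that bacteria share: Mrpl14 at 0.59, which faces the small subunit, Mrpl16 at 0.58, next to the tRNA sites, and Mrpl3 at 0.40, next to the peptidyl transferase centre. They also include proteins found in mitochondrial ribosomes alone, such as Mrpl46, Mrpl42 at 0.51, Mrpl43 at 0.38 and Mrpl40 at 0.36. Mrpl44, with a fold related to ribonuclease III, rose by 0.54; loss of its function in humans causes a cardiomyopathy.

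The proteins of the stalk did not move together. The stalk of the large subunit holds Mrpl12, in several copies, on Mrpl10, next to Mrpl11, and it recruits the elongation factors. Mrpl12 rose, with 6578, 6273 and 6266 in Glis2KD cells, against 4171, 4511 and 4876 in Control cells, a fold change of 0.50 ± 0.0883 (SE; adjusted p = 0.000115). Mrpl10 fell, with 3884, 3825 and 3556 in Glis2KD cells, against 4258, 4311 and 4787 in Control cells, at -0.24 ± 0.0879 (SE; adjusted p = 0.0479). So Mrpl11 and Mrpl12 were higher in Glis2KD cells, while Mrpl10, which anchors Mrpl12, was slightly lower and just inside the threshold. The fall of Mrpl10 was not called in 11 of 19 alternative analyses, whereas the rise of Mrpl11 was called in all 19.

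The other genes that fell were Mrpl24 and Mrpl52. Mrpl24 is the counterpart of a bacterial protein that starts assembly of the large subunit and borders the exit of the peptide tunnel. It had 1692, 1803 and 1611 in Glis2KD cells, against 2141, 2291 and 2186 in Control cells, a fold change of -0.38 ± 0.0866 (SE; adjusted p = 0.00187). All its Glis2KD arrays were below all its Control arrays, and the call held in each of 19 alternatives. Mrpl52, specific to mitochondrial ribosomes, had 2873, 3182 and 3191 in Glis2KD cells, against 3771, 3729 and 3465 in Control cells, at -0.25 ± 0.0875 (SE; adjusted p = 0.0444), and lost its call in 10 of the 19.

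Other counterparts of bacterial proteins near the tunnel exit are Mrpl17, described above, Mrpl47, Mrpl22, Mrpl23 and Mrpl32. Mrpl47, counterpart of L29, rose by 0.29 ± 0.0936 (SE; adjusted p = 0.0256), but was called in only 3 of the 6 fits that left out an array. Mrpl22 and Mrpl23 were not called, at 0.19 with a 95% interval of -0.01 to 0.38, and 0.22 with a 95% interval of 0.05 to 0.40, and Mrpl32 was not above background. Mrpl45, a mitochondria-specific protein at the exit that faces the inner membrane, was dim, with 144, 122 and 126 in Glis2KD cells, against 136, 152 and 154 in Control cells, and was not called, at -0.17 with a 95% interval of -0.36 to 0.02.

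Among the 25 large subunit genes without a call, Mrpl33 was the brightest member of all, with 22228, 20811 and 19694 in Glis2KD cells, against 18373, 18689 and 22365 in Control cells. Its groups overlapped, at 0.08 with a 95% interval of -0.11 to 0.28. Mrpl27, whose bacterial counterpart reaches into the peptidyl transferase centre, had 2728, 2571 and 2810.3 in Glis2KD cells, against 2782, 2784 and 3244 in Control cells, at -0.12 with a 95% interval of -0.30 to 0.07. Mrpl58, a peptidyl-tRNA hydrolase that became part of the ribosome, was at 0.02 with a 95% interval of -0.22 to 0.25. The values nearest the threshold show how narrowly some genes missed or met it. Just inside were Mrpl52 and Mrpl10, with adjusted p of 0.0444 and 0.0479; just outside were Mrpl49, at 0.24 with 0.0577, and Mrpl50, at -0.24 with 0.0628.

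**Figure D2:**
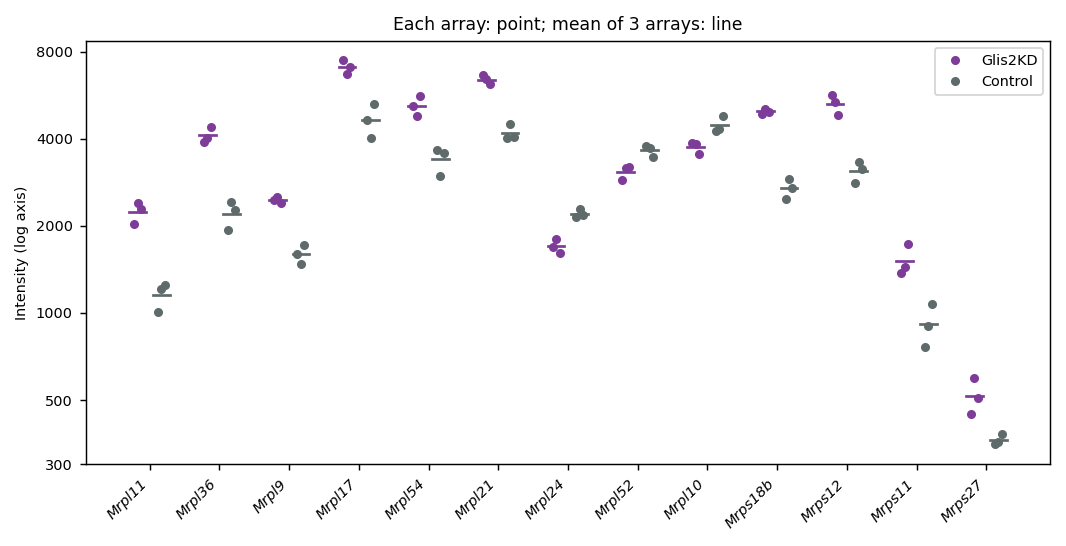
Intensity (log axis) of 13 members on every array, Glis2KD left of Control within each gene, with points for arrays and lines for the mean of 3. These are the genes that rose or fell most in each subunit; the groups do not overlap in any of the 13, and Mrpl24, Mrpl52 and Mrpl10 are those with Glis2KD below Control.

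In the small subunit, 11 of 28 genes rose and 0 fell, with a median log2 fold change of 0.19. At an unadjusted p under 0.05, limma put Mrps15 at -0.23 and Mrps31 at -0.21 on the lower side. At that threshold it also put genes without a call on the higher side. These were Mrps7, Mrps28, Mrps21, Mrps23 and Mrps10, at 0.19, 0.21, 0.19, 0.18 and 0.19. Further probes above background gave 0.18 for Mrps15, and -0.007 and -0.017 for Mrps31. Mrps18b rose most. It is one of the paralogs that mammals have for bacterial S18, and it had 4879.7, 5067 and 4971 in Glis2KD cells, against 2469.5, 2903 and 2713 in Control cells, a fold change of 0.89 ± 0.0884 (SE; adjusted p = 3.32e-08). Its groups lay far apart and its 3 probes gave 0.89, 0.84 and 0.99. Of its paralogs, Mrps18c rose by 0.33 ± 0.107 (SE; adjusted p = 0.0262) although its groups overlapped, with 4842, 5402 and 6076 in Glis2KD cells, against 3922, 5139 and 3975 in Control cells, and was called in 2 of the 6 fits that left out an array. Mrps18a, which sits in the large subunit in structures of the mammalian ribosome despite its name, was not called, at 0.03 with a 95% interval of -0.16 to 0.23.

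Mrps12, counterpart of the S12 protein of the decoding centre, where the codon meets the tRNA, rose with 5651, 5347 and 4846 in Glis2KD cells, against 2809, 3321 and 3144 in Control cells, a fold change of 0.77 ± 0.0927 (SE; adjusted p = 6.09e-07). Mrps11, counterpart of S11 on the platform, had 1379, 1438 and 1727 in Glis2KD cells, against 764, 903 and 1073 in Control cells, at 0.74 ± 0.111 (SE; adjusted p = 1.44e-05). Neither gene had overlapping groups, but the arrays of Mrps11 were spread more widely on both sides. Mrps27, a mitochondria-specific protein with pentatricopeptide repeats, was dimmer, with 447, 597 and 509 in Glis2KD cells, against 352, 359 and 380.1 in Control cells, at 0.50 ± 0.0986 (SE; adjusted p = 0.000393). It was lower in every Control array than in any Glis2KD array. With the background subtracted neither Mrps11 nor Mrps27 was called (limma adjusted p = 0.0622 and 0.064). Nor was Mrps27 called relative to its 50 neighbouring genes, where the neighbours' median intensity was subtracted on each array. Relative to neighbours above background Mrps27 was called higher.

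The other small subunit genes that rose were Mrps9 at 0.44, a protein of the head, Mrps17 at 0.39, and the mitochondria-specific Mrps34, Mrps25, Mrps26 and Mrps30 at 0.38, 0.36, 0.29 and 0.29. Mrps30 also sits in the large subunit in structures. With Mrps18a and Mrps30 counted there, 21 large subunit genes and 10 small subunit genes rose. Mrps7, which organises the head in bacteria, was not called at 0.19 with a 95% interval of 0.01 to 0.36, although its groups did not overlap. Mrps22, a mitochondria-specific protein whose loss of function in humans causes a respiratory chain disorder, was not called at 0.14 with a 95% interval of -0.04 to 0.31. Mrps33 stood at 0.00 with a 95% interval of -0.18 to 0.18, and Mrps24, the brightest gene of the small subunit, was at -0.10 with a 95% interval of -0.28 to 0.08.

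The counts in the subunits were close. Of the Mrpl genes 41.7% rose and of the Mrps genes 39.3%, and their medians differed by 0.01 on the log2 scale. The counts were not close in every alternative: with the background subtracted 15 large and 3 small subunit genes rose, and without array 2 of the Glis2KD group 18 large and 7 small. By array, the median deviation of large subunit genes from the Control mean was 0.20, 0.20 and 0.24 in Glis2KD cells, against -0.05, 0.01 and 0.05 in Control cells. For small subunit genes it was 0.16, 0.19 and 0.20 in Glis2KD cells, against -0.04, 0.01 and 0.03 in Control cells. No Glis2KD array overlapped a Control array in either subunit. The summed intensity of the 76 genes was 247611, 248237 and 245271 in Glis2KD cells, against 203426, 210671 and 216962 in Control cells. Exact permutation of 3 against 3 arrays cannot give a p under 0.1, so no p is given for these sums, which also rest on the brightest probes.

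Counts were also close between proteins with and without a bacterial counterpart. Of 48 genes with one, 19 rose and 2 fell with a median of 0.19; of 28 mitochondria-specific genes, 12 rose and 1 fell, also with a median of 0.19. Within the large subunit the median was 0.16 for the 18 mitochondria-specific genes and 0.21 for the 30 with counterparts. Within the small subunit it was 0.23 for the 10 mitochondria-specific genes and 0.19 for the 18 with counterparts. Neither ordering was tested.

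**Figure D3:**
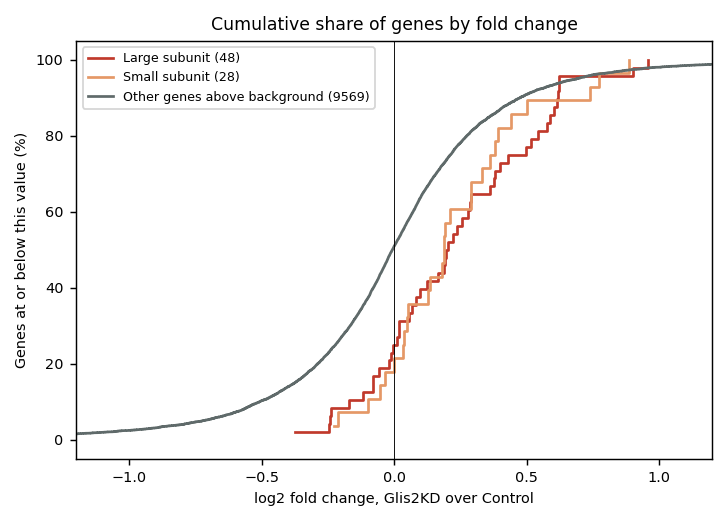
Cumulative share of genes (percent, vertical axis) at or below each log2 fold change, Glis2KD over Control, for 48 large subunit genes, 28 small subunit genes and the 9569 other genes above background. The horizontal axis is cut outside the range of the members, -0.38 to 0.96, so wider changes of other genes are not drawn. The subunit curves run close together and, through most of their range, right of the curve of the other genes. The medians are 0.20, 0.19 and -0.01.

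Further probes of the same genes, dimmer than the ones chosen, were also read. Of the 76 members 43 had 1 probe and 33 had several, up to 7. Among 40 further probes above background, 16 were called higher and 0 lower, and no gene had probes called in opposite directions. These calls come from a separate limma fit over all 34885 probes with 1 gene symbol, in which 16.7% of the further probes above background of other genes were called higher and 15.3% lower. Mrps12 gave 0.77 and 0.81 on its probes, Mrps11 0.74 and 0.75, and Mrpl43 0.38 and 0.77. In 6 genes, Mrpl1, Mrpl13, Mrpl15, Mrpl38, Mrpl49 and Mrps10, a dimmer probe was called higher while the brightest was not. For Mrpl38 the brightest probe gave 0.02 and another gave 0.66. In Mrpl18, Mrps25 and Mrpl47 the brightest probe was called higher, at 0.38, 0.36 and 0.29. In each, a further probe above background was not called, at -0.13, -0.06 and 0.10, though another probe of Mrps25 was called at 0.31. Which transcripts each probe reads was not analysed here.

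Fold changes in these cells also followed chromosomes. Over genes above background that are no members, the median log2 fold change was 0.23 on chromosome 19, 0.20 on chromosome 10 and 0.14 on chromosome 7, but -0.32 on chromosome 18 and -0.22 on chromosome X. Of the members, 5 lie on chromosome 19, 2 on chromosome 10 and 6 on chromosome 7, and 0 lie on chromosome 18, X or 12. On chromosome 19, 4 of the 5 rose, where 45.5% of the other genes above background were called higher. On chromosome 10, 2 of 2 rose, where that share was 42.8%, and on chromosome 7, 4 of 6 rose, where it was 37.8%. On chromosome 17, 4 of 8 members rose with a median of 0.29, where 14.5% of the others were called higher and their median was -0.05. On chromosome 11, which holds the most members, 1 of 11 rose and 1 fell, with a median of 0.02; 12.7% of the others there were called higher and 24.8% lower. On chromosome 4 none of 4 was called.

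Each member was therefore compared with neighbours above background, a base chosen after seeing the data. It was set beside the median fold change of up to 50 such genes nearest to it, members left out. For 21 members that median exceeded 0.1, and 15 of them rose and 1 fell, with a median fold change of 0.44. For the other 55 members it did not, and 16 rose and 2 fell, with a median of 0.14. Over all genes above background 21.3% were called higher. On chromosomes 19, 10 and 7 that share was 45.5%, 42.8% and 37.8% of the genes that are no members. No share of other genes with like neighbours is given here, so the counts of 15 and 16 have no matched base. Of all 76, 60 lay above their neighbours' median. Over all 76 the median difference from the neighbours' median was 0.20. Mrps18b stood 0.89 beside neighbours at -0.01, Mrpl36 0.90 beside 0.08, and Mrpl11 0.96 beside 0.29. Mrpl46 and Mrps11 neighbour each other on chromosome 7, transcribed in opposite directions, with promoter windows that overlap by 141 bases; they rose by 0.60 and 0.74 and are not separate loci. How far the chromosome pattern accounts for the members' shift was not tested beyond these values.

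**Figure D4:**
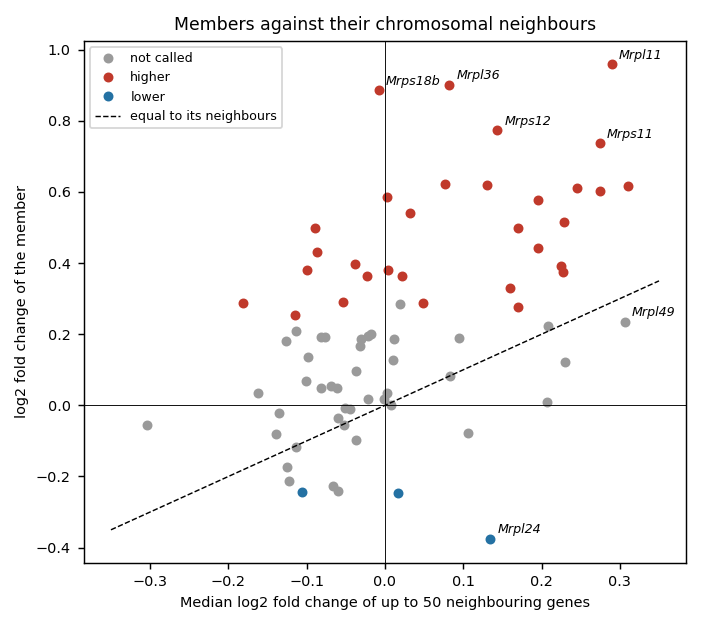
log2 fold change (Glis2KD over Control) of each of the 76 members, vertical axis. The horizontal axis is the median log2 fold change of up to 50 neighbouring genes above background, with members left out of the median. Points above the dashed line (60 of 76) were higher than their neighbours; red points rose, blue points fell.

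The rest of the machinery of mitochondrial translation was read from lists of other genes, whose counts are to be set beside the 21.3% of genes above background called higher and the 21.9% called lower. The lists were not matched to the members for brightness. The median intensity was 2304 over the members, 265 over regulators of mitochondrial biogenesis and 29307 over cytosolic ribosomal proteins, with the other lists between. As background was not subtracted, fold changes are not directly comparable between lists of unlike brightness. Of 16 translation factors measured, 5 rose and 0 fell, with a median of 0.04. The risers by smallest p were the initiation factor Mtif3 at 0.52, with 833, 943 and 905 in Glis2KD cells, against 628, 637 and 599 in Control cells, the elongation factors Tufm and Tsfm at 0.35 and 0.35, and Mtres1 at 0.33. With the median intensity of its chromosomal neighbours subtracted on each array, Mtres1 stood at -0.08. The median fold change of its neighbours above background was 0.16, which is a different measure. The count of 5 was 3 without array 3 of either group, 2 relative to neighbours and 1 with the background subtracted. Of 4 ribosomal proteins without an Mrp symbol, only Chchd1 was called, at 0.29 ± 0.0859 (SE; adjusted p = 0.014), and not without array 2 of the Glis2KD group or array 1 of the Control group, while Dap3 and Ptcd3 of the small subunit stood at -0.06 and -0.03 without a call.

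Of 16 mitochondrial aminoacyl-tRNA synthetases, which charge tRNAs, 3 rose and 2 fell, with a median of -0.03. Ears2 and Mars2 rose by 0.58 and 0.46, while Vars2 and Lars2 stood at -0.63 and -0.57. The second brightest probe of Lars2 gave 0.0018. Ears2 was not called on its second brightest probe, at 0.07, or with the background subtracted. With the background subtracted 1 synthetase rose. Vars2 had 2121, 2077 and 2193 in Glis2KD cells, against 3511, 3521 and 2916 in Control cells. Of 28 assembly and ribosomal RNA modification factors, 7 rose (25%) and 4 fell (14.3%), with a median of 0.02, and 4 rose with the background subtracted. Among them Tfb1m, which dimethylates the small ribosomal RNA, fell by 0.55, with 335, 362 and 356 in Glis2KD cells, against 506, 563 and 478 in Control cells. Rcc1l, the ribosomal RNA methyltransferase Mrm3 and the GTPase Mtg1 rose by 0.54, 0.50 and 0.48. The second brightest probe of Mtg1 was not called, at 0.14, and Rcc1l was not called relative to neighbouring genes.

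Of 16 genes of mitochondrial transcription and DNA maintenance, 3 rose and 2 fell, with a median of -0.02. The RNA polymerase Polrmt rose by 0.43 and the helicase Twnk by 0.40, whereas Hsd17b10, a part of the mitochondrial ribonuclease P, and Top1mt stood at -0.57 and -0.49. With the median intensity of neighbouring genes subtracted on each array, Twnk stood at -0.0998. The neighbours of Twnk above background had a median fold change of 0.21. Polrmt was not called with the background subtracted or relative to neighbours above background. In the list, 1 gene rose with the background subtracted and 0 relative to neighbours above background. Of 26 genes of protein import, 6 rose (23.1%) and 4 fell (15.4%), with a median of 0.04. Timm10, Tomm40 and Timm50, components of the import complexes, rose by 0.81, 0.80 and 0.72, and Mipep, a peptidase that trims imported proteins, fell by 0.79; the second brightest probes of Tomm40 and Mipep were not called. Timm10 had 970.4, 984 and 944 in Glis2KD cells, against 479.8, 564 and 619 in Control cells.

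Of 17 regulators of mitochondrial biogenesis, 4 rose (23.5%) and 2 fell (11.8%), with a median of 0.04. The 4 became 2 without array 2 of either group, with a replicate block and under both background corrections, and 1 relative to neighbours. Pprc1, a coactivator related to PGC-1, rose with 2365, 2240.2 and 2158 in Glis2KD cells, against 1373, 1459 and 1709 in Control cells, at 0.58 ± 0.0937 (SE; adjusted p = 3.73e-05). Myc rose by 0.53, with 317, 295 and 327 in Glis2KD cells, against 212, 227 and 210.0 in Control cells. With the neighbours' median intensity subtracted on each array, Pprc1 was not called, at 0.13. The median fold change of its neighbours above background was 0.28. The second brightest probe of Myc was not called, at 0.15. Ppargc1a, which encodes PGC-1 alpha, had 104, 129 and 135 in Glis2KD cells, against 223, 177 and 138 in Control cells; all its Glis2KD arrays were under the background limit, so it was at least 1.29-fold lower, taking the limit in their place (limma adjusted p = 0.00281). Crebl2 was also lower, at -0.49, near background, and the second brightest probes of Ppargc1a and Crebl2 gave 0.061 and 0.037. Nrf1 and Gabpa, whose motifs were searched above, were not called at 0.08 and -0.003, and Yy1 was not above background.

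Cytosolic ribosomal proteins form the ribosomes that translate nuclear messages. Of 47 measured, 5 rose and 4 fell, with a median of 0.00, with 3 rising without array 1 or 3 of the Glis2KD group or array 1 of the Control group, and 8 with an offset of 50. In either direction 19.1% were called, against 43.2% of all genes above background. The mitochondrial ones were called in 44.7%, close to that ordinary share, and differed from it in how the calls were split between higher and lower. None of these differences was tested. Rpl30 rose by 0.87, with 5643, 6062 and 5260.5 in Glis2KD cells, against 2688, 3383 and 3249 in Control cells. Rps15 and Rps13 rose by 0.42 and 0.42, and Rpl39 stood at -0.56. With the neighbours' median intensity subtracted on each array, Rps15 was -0.166. With that of neighbours above background subtracted, Rpl39 was 0.337. The median fold changes of the neighbours above background were 0.34 for Rps15 and -0.80 for Rpl39. Many cytosolic ribosomal protein genes have processed pseudogenes that can share probe sequence, so these values are uncertain.

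**Figure D5:**
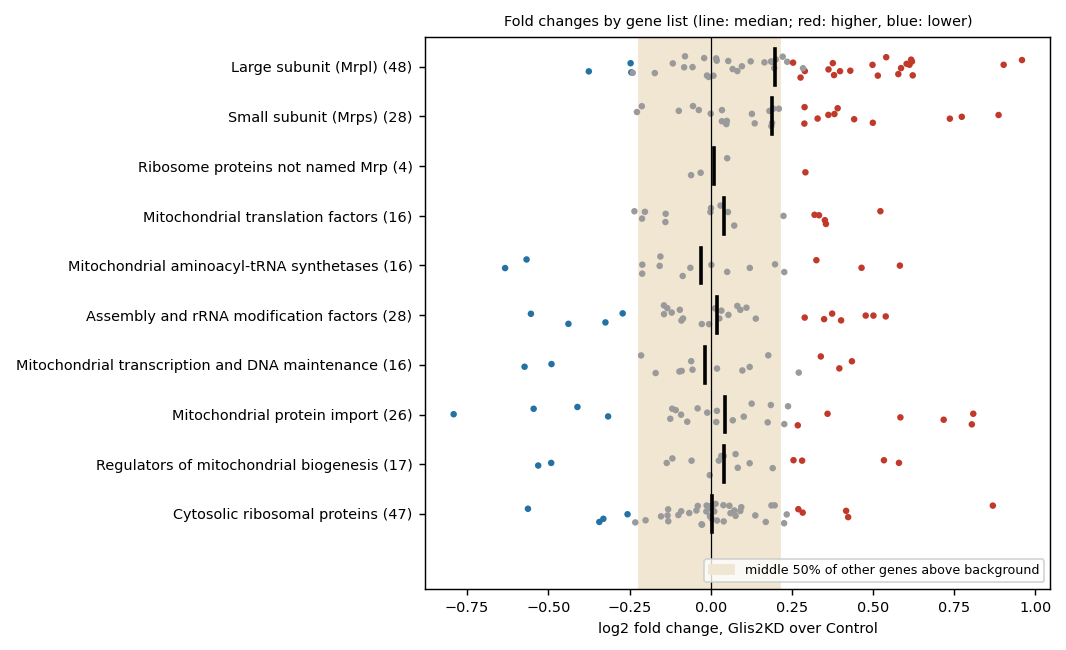
log2 fold change (Glis2KD over Control) of each gene in the large and small subunit and in the companion lists, 1 point a gene, with a line at the median and a shaded band for the middle 50% of other genes above background. Both subunits have medians of about 0.2. Each companion list has a median between -0.03 and 0.04, but the lists were not matched for brightness.

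The limits are those of the arrays. Since the deposited values share a common distribution, a change in total messenger RNA per cell would not show, and the labels do not say whether the 3 arrays of a group came from separate cultures, so the p-values rest on a spread that may be technical. With the background subtracted 18 members rose and 1 fell, and 17 of the 18 are among the 31 above.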

How the data were processed

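Total RNA of 6 samples was hybridised to Illumina mouse bead arrays. The authors deposited 1 linear intensity per probe and array, made by software and a normalization not given in the sources used here. As deposited, the arrays share a distribution (log2 medians within 0.000288) and background was not subtracted (intensities between 85.4 and 52227). The number of arrays limits the precision. Values were floored at 16, which altered 0 of them, and taken to log2. The groups were compared (Glis2KD minus Control) in R 4.3.3 with limma 3.58.1 (lmFit, eBayes without trend), with Benjamini-Hochberg adjustment over 19057 genes. Of 45281 probes, 34885 had 1 symbol, 18 several and 10378 none; 34807 were matched to RefSeq genes by Entrez identifier and 0 symbols changed. Each gene is its brightest probe by mean over the 6 arrays. A gene is above background when that mean exceeds 137. No source used here names the build of the probes, so RefSeq (GRCm38.p6) served for promoter windows, names, chromosomes and gene order.

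The members and lists were chosen with earlier results of these data known. Named genes were Glis2, the called members above background that rose most and fell most (6 and 6 in the large subunit, 4 and 4 in the small), the 2 nearest members on each side of the threshold, members with probes called opposite ways, and up to 4 called genes of each companion list by smallest p. Members named beyond that rule were picked for their role, with their values seen. The fit was tested on simulated data. Samples with the same replicate number did not deviate together. Alternatives were a replicate block, 2 normalizations, 2 background corrections, an offset of 50, filters on dim probes, other probes and eBayes with trend. Further ones were each array left out, 50 neighbouring genes as a base and, chosen after seeing the data, neighbours above background. For both neighbour bases, the median log2 intensity of the neighbours was subtracted on each array. Figures used matplotlib 3.10.9.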

Additional observations from a re-analysis of the deposited data

How the results depend on the processing

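The median fold change of all members stayed between 0.16 and 0.21 in every alternative run, and between 18 and 33 members were called higher. Of the 31 that rose, 13 were called higher in all 19 alternatives, and Mrpl24 was called lower in all. Replicate numbers did not pair the samples: deviations of same-numbered arrays correlated at -0.091, -0.038 and -0.037, and with a replicate block 1 member was called lower, in the large subunit. With background subtracted, 18 members were called higher (3 in the small subunit) and 1 lower, in the large, the difference between subunit medians was 0.031, and 1318 genes were called higher and 1325 lower over the array. With normexp, 1 member was called lower, in the large subunit. The mean of all probes gave a small subunit median of 0.157, the second brightest probe a subunit difference of 0.025, and values relative to 50 neighbours 0.043. Relative to neighbours above background, 5 members were called lower, 1 of them in the small subunit, whose median was 0.158. Leaving out 1 array gave 25 to 31 members higher, 1 to 3 lower in all and in the large subunit, 0 to 1 lower in the small (1 without Control 1), 7 (without Glis2KD 2) to 11 higher in the small, and a subunit difference of -0.016 (without Control 2) to 0.062 (without Control 3). The second brightest probe turned Lars2 to 0.0018, Crebl2 to 0.037 and Ppargc1a to 0.061. Relative to neighbours, Mtres1 was -0.078, Twnk -0.0998 and Rps15 -0.166. Relative to neighbours above background, Mtres1 was -0.119 and Rpl39 0.337. These values subtract the neighbours' median intensity on each array, so they are not differences from the neighbours' median fold change. The cause was not tested in any case. No member is a pseudogene by symbol and Mrps36 is not among them, so those alternatives change nothing.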
